A study of Mus musculus with 4 samples.

Results

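Serine-threonine kinases carry calcium, cyclic AMP and growth factor signals inside dendrites, and the group described here holds genes of several kinase families together with subunits that regulate them. The genes of CaMKII (Camk2) are not part of it. Its members were taken by gene name alone: all polyA sites whose deposited gene name starts with the symbol of a PKA or AMPK subunit (Prka), PKC (Prkc), PKD (Prkd), MAP kinase (Mapk, Map2k, Map3k, Map4k), GSK3, CDK, CDKL, DCLK, casein kinase (Csnk), MARK, RPS6K, AKT or BRSK gene, or is Mtor. The group held 113 of 9297 sites, 80 of 7202 gene names and 443 of 34672 tags. The name pattern also took in genes that encode no kinase, and of the 80 genes 64 encode a catalytic kinase subunit.

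The data were 4 replicate cTag-PAPERCLIP libraries from the CA1 neuropil, the layer of the mouse hippocampus that holds the dendrites of CA1 pyramidal neurons beside axons and glia. All animals were C57BL/6 mice of the genotype Camk2a-Cre x Pabpc1-cTag, in which Cre under the Camk2a promoter makes excitatory neurons tag their Pabpc1, the cytoplasmic poly(A)-binding protein, so that crosslinked fragments (tags) mark the 3′ ends of their mRNAs. The replicates form 1 group with no treated or untagged control, the labels give no age, and each replicate pooled tissue of several mice. Fewer mRNAs in the neuropil and weaker binding of the tagged protein cannot be told apart in these counts.

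The replicates differed in depth and make-up. They held 16017, 6609, 5947 and 6099 tags, of which 32.9%, 11.8%, 2.59% and 2.07% fell at sites resembling the repeated sequence of the noncoding RNA Bc1. None of the kinase sites was of this kind, and shares below are percentages of the 10752, 5832, 5793 and 5973 tags elsewhere. Of the pyramidal neuron markers 9 of 10 were detected, at 0.518 to 1.62% of tags, and Slc17a7 was at 0. All 7 astrocyte markers (0.0837 to 0.409%) and all 6 oligodendrocyte markers (0.134 to 0.617%) also had tags, as did 4 of 7 interneuron markers (0.0343 to 0.251%), with Gad2, Slc32a1 and Vip at 0. Only 1 of 5 microglia markers and 1 of 4 endothelial markers was detected, with 2 tags and 1 tag. Where a gene had 0 tags in a replicate its share could still reach 0.0279%, 0.0514%, 0.0518% and 0.0502% (3 tags) in replicates 1 to 4. Tags were PCR-amplified and need not each stand for an mRNA, so these limits and all intervals speak of counting error alone.

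By way of background, PKA is held inactive by regulatory subunits until cyclic AMP releases the catalytic subunits, and PKC is activated at membranes by diacylglycerol, with calcium for the classical forms. MAP kinases stand at the end of a cascade of a MAP3K, a MAP2K and a MAPK, while CDK5, the neuronal member of the CDK family, works only with an activator, p35 (Cdk5r1) or p39 (Cdk5r2). PKC, CDK5, GSK3 and the ERK kinases are known for their parts in synaptic plasticity in hippocampal neurons.

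A selection of 3′ ends from kinase genes with at least 10 tags is shown first, because the site, not the gene body, is what the assay reads. Each line gives 30 bases of the GRCm38 genome (RefSeq sequence) on the strand of the gene, starting 15 bases before the deposited site in the direction of transcription, with the polyadenylation signals AATAAA and ATTAAA in capitals.
Prkcb distal end, chr7:122634360-122634389, plus strand: tgtttaagaattggtatgATTAAActgaat
Prkcb proximal end, chr7:122628636-122628665, plus strand: ctgtcatcattgaaatgcaaaaagaaaaaa
Cdk5r1 distal end, chr11:80481145-80481174, plus strand: gtactgtgctgattcAATAAAatgcactga
Cdk5r2 main end, chr1:74857395-74857424, plus strand: tcctggagcgaactataaagcgctggaagc
Map3k10 main end, chr7:27656382-27656411, minus strand: aggcgcagcATTAAAggtaagccctgcccc
Brsk1 end, chr7:4715961-4715990, plus strand: aacaacaacaacaaaAATAAAtagccttga
Dclk1 proximal end, chr3:55536520-55536549, plus strand: atgatcAATAAAtgtgtgaattgttccaaa
Dclk1 distal end, chr3:55539018-55539047, plus strand: atgttcttaaactAATAAAgtcatatctct
Gsk3b main end, chr16:38245425-38245454, plus strand: gtaatttgcATTAAATAAAaagtaggttag
Csnk2a1 main end, chr2:152281814-152281843, plus strand: aatttttttttttaAATAAAaacatttaaa
Prkar1b end, chr5:139017315-139017344, minus strand: catgaactATTAAAtgtgcaatgaagaacc

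The hexamer lay across or next to the deposited site in most of these windows, and in Gsk3b both hexamers overlap. The Prkcb proximal end and the main Cdk5r2 end had neither hexamer within 50 bases. Their windows differ in base composition, since the Prkcb proximal end is followed by A-rich sequence, and 61.2% of the bases within 100 bases of the Cdk5r2 end are G or C.

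Over the whole group, 90 of 113 sites (79.6%, 95% Wilson interval 71.3 to 86.0) had AATAAA or ATTAAA within 50 bases on either side, on the strand of the site, beside 78.1% of all 9294 sites on placed chromosomes. AATAAA alone was found at 63.7% of the kinase sites and 64.4% of all sites. The nearest AATAAA, or the nearest ATTAAA where no AATAAA was present, began at a median position of -2 relative to the site in both sets. Negative values lie upstream. Of the kinase sites 57 lay within 100 bases of the annotated end of their gene, all of them upstream of it, at a median of -24 bases. The letters TTTTAT or TTTTAAT, which are forms of the cytoplasmic polyadenylation element and of which TTTTAAT can overlap AATAAA, stood within 100 bases upstream of 22 kinase sites (19.5%, interval 13.2 to 27.7) and 16.7% of all sites. The kinase sites thus carried these signals at about the rate of the whole list.

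In the GENCODE vM21 annotation 96 of 113 kinase sites (85.0%, interval 77.2 to 90.4) fell in a 3′UTR, beside 76.5% of all sites. Among sites with tags in more than 1 replicate these shares were 89.1% (41 of 46) and 88.6%. Of the other kinase sites 10 lay between genes, 4 in introns, 2 in noncoding exons and 1 in a coding exon. Kinase 3′UTRs reached a median of 1319.5 bases from the stop codon to the site (n = 96), and those of all genes 994 bases (n = 6501). Their sites had a median GC content of 40.3% over 100 bases on either side, beside 37.3% for all sites.

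The group took 173, 103, 76 and 91 tags in replicates 1 to 4. This was 1.61% (95% Wilson interval 1.39 to 1.86), 1.77% (1.46 to 2.14), 1.31% (1.05 to 1.64) and 1.52% (1.24 to 1.87) of the tags of each replicate, or 1.55% ± 0.189 (SD, n = 4). All 4 intervals overlap. Of all tags, Bc1-like ones included, the group took 1.08% (0.931 to 1.25) in replicate 1 and 1.56% (1.29 to 1.89) in replicate 2, and these intervals do not overlap. Replicates held tags of 48, 38, 41 and 42 of the 80 genes.

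Tags in more than 1 replicate were found at 46 of 113 kinase sites (40.7%, interval 32.1 to 49.9), beside 34.2% of all sites. Tags in all 4 replicates were found at 10 kinase sites (8.85%) and 4.90% of all sites. Of the 80 genes 46 had tags in more than 1 replicate, 12 had tags in all 4 (15%, beside 7.76% of all gene names), and 24 had a single tag (30%, beside 43.7%). The median was 2.5 tags per kinase gene and 2 over the 7132 genes with tags outside Bc1-like sites. At least 20 tags were held by 6 kinase genes (7.5%, beside 2.93% of all gene names). These 6 genes, Prkcb, Cdk5r2, Cdk5r1, Map3k10, Brsk1 and Dclk1, held 186 tags or 42.0% of the group.

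By family, CDK genes with their activators held 100 tags at 13 genes, followed by PKC with 78 tags at 6 genes and the casein kinases with 47 at 8 genes. MAP3K genes held 36 tags, MAPK genes and their scaffolds 31, PKA subunits 26, DCLK 22, BRSK 21 and GSK3 14. The remaining kinase families held 11 tags or fewer each. PKC came to 0.256% ± 0.0850 of tags and the casein kinases to 0.162% ± 0.0418, with tags in all replicates. The SD of the MAP3K share, 0.135% ± 0.143, exceeded its mean, because replicate 2 held 20 of the 36 tags.

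**Figure D1:**
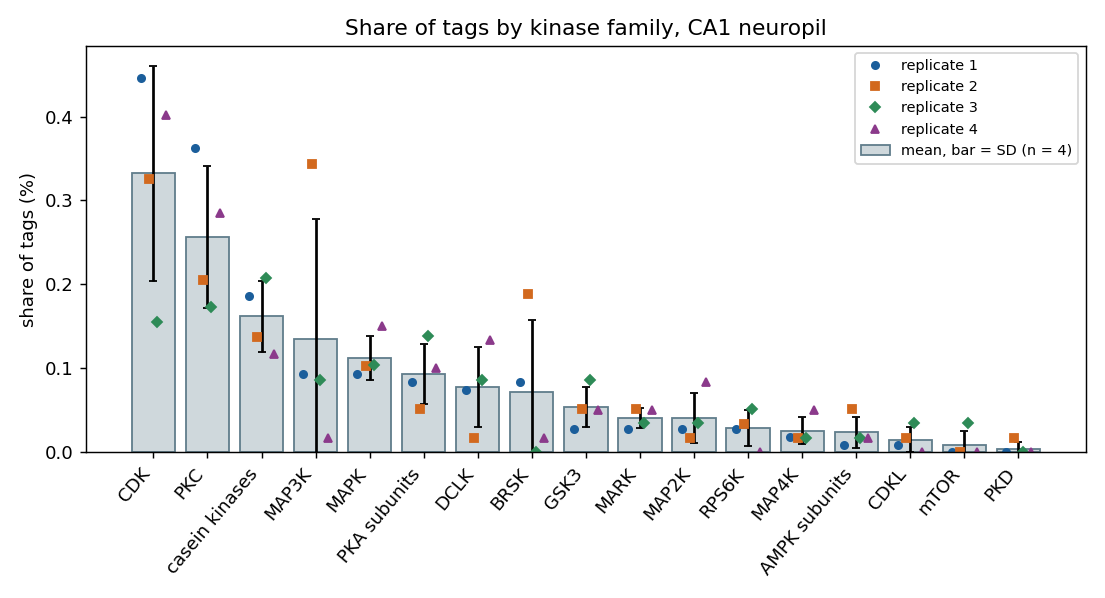
Share of tags outside Bc1-like sites (y axis, %) of the kinase families shown (x axis) in the CA1 neuropil, with bars for the mean, error bars for the SD and points for the 4 replicates. CDK genes lead at 0.332% ± 0.128, and the MAP3K and BRSK bars are carried by replicate 2.

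Among the activating partners, both CDK5 activators ranked among the leading genes of the group while Cdk5 itself was nearly absent. Cdk5r2, which encodes p39, had 15, 14, 2 and 2 tags in replicates 1 to 4, or 0.112% ± 0.0989 of tags. Cdk5r1, which encodes p35, had 10, 2, 5 and 13 tags, or 0.108% ± 0.0778. Cdk5r2 was high in replicates 1 and 2 and low in 3 and 4, whereas Cdk5r1 was highest in replicate 4 and lowest in 2. Without replicate 2 the mean share of Cdk5r2 was 0.0692%, and without replicate 4 that of Cdk5r1 was 0.0712%. Their sum varied less than either, with 25, 16, 7 and 15 tags and 0.220% ± 0.0681. Cdk5, the kinase they activate, had 1 tag, in replicate 1. That is 1 of the 64 tags of the 3 genes (1.56%, exact 95% interval 0.0396 to 8.40), although a tag count depends on the 3′ end as well as on the amount of mRNA.

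Other CDK genes had few tags. Cdk14, a membrane-bound CDK of the PFTAIRE type, had 6, 1, 1 and 3 tags, and Cdk16, a neuronal PCTAIRE kinase, had 5, 1, 0 and 2. Both were seen at low level in at least 3 replicates. Cdk12, which phosphorylates RNA polymerase II, had 1, 0, 0 and 2 tags, all at 1 intronic site 24992 bases upstream of the annotated end of the gene, and it was the only intronic kinase site with tags in more than 1 replicate. Cell cycle genes were at the limit of detection, with 2 tags for Cdk1, at a site 12338 bases past the gene, and 1 for Cdk4.

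Prkcb, which encodes the classical calcium-dependent kinase PKCβ, had the most tags of the group. Its 32, 4, 7 and 10 tags came to 0.164% ± 0.0980, and 45 of all genes, Prkcb included, had as many. Replicate 1 stood above the other replicates, and all 4 held tags. Prkca, another classical PKC, had 2, 0, 1 and 2 tags. Prkce, a calcium-independent PKC, had 5, 0, 2 and 2 tags. Prkd1, of the related PKD family, had a single tag in replicate 2, 565174 bases past the annotated gene.

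PKA was represented by 4 regulatory and 2 catalytic genes. The regulatory genes held 6, 3, 6 and 2 tags, and the catalytic genes Prkaca and Prkacb 3, 0, 2 and 4. The catalytic genes thus gave 9 of 26 tags (34.6%, exact 95% interval 17.2 to 55.7), an interval that includes equal counts. With more regulatory than catalytic genes, the larger regulatory sum does not mean more tags per gene. Prkar1b, the brain-enriched type I regulatory subunit, led with 4, 2, 4 and 1 tags, 11 of the 17 regulatory tags, and was present in each replicate. Prkaca, the main catalytic subunit, had 2, 0, 1 and 3. AMPK subunits held 6 tags in all, led by the regulatory gene Prkag2 with 0, 1, 1 and 1.

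Of 14 genes for PKA anchors and inhibitors, 10 were detected with 46 tags. Of these, 27 belonged to Akap8, a mainly nuclear anchor, with 22, 2, 2 and 1 tags. Akap5, Akap2, Akap9 and Akap12 had none. Pkia, the gene of a PKA inhibitor, had 2, 0, 2 and 2 tags. Apart from Akap8, no gene of the list had more than 6 tags.

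Within the MAP kinase cascade, Map3k10, which encodes the mixed-lineage kinase MLK2 upstream of JNK, had the most tags of any gene, with 8, 19, 2 and 0 tags, or 0.109% ± 0.148. Replicate 2 alone held 19 of its 29 tags, replicate 4 held none, and without replicate 2 the mean share was 0.0363%. Map2k1, which encodes the ERK kinase MEK1, had 3, 1, 1 and 2 tags and was seen in each replicate. Mapk3, the gene of ERK1, had 1, 1, 2 and 0. The 3 JNK genes had 2, 1, 0 and 4 tags, and 2 scaffolds that hold the JNK cascade together, Mapk8ip2 and Mapk8ip3, had 2, 2, 2 and 3. Under the deposited names Mapk8ip2 led the MAPK name group, with 2, 1, 1 and 1 tags. Another scaffold gene, Mapk8ip1, had 15 tags (5, 10, 0 and 0) at a site deposited as Mir7000, outside these counts. Among the MAP4K genes, Map4k3 had 1, 1, 1 and 0, and among the ribosomal S6 kinases that ERK or mTOR activates, Rps6ka3 had 1, 2, 1 and 0.

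Upstream of the ERK cascade, 12 of 18 genes of a Ras and Raf list were detected with 47 tags. Rasgrp1, a calcium- and diacylglycerol-regulated Ras activator, had 6, 1, 1 and 2. Braf, which phosphorylates MEK, had 2, 2, 0 and 0 tags. On the branch through AKT and mTOR, Mtor had 0, 0, 2 and 0 tags. Of 17 PI3K and mTOR partners 9 were detected, with 19 tags in all and 4 for Tsc2, the highest of the list. These growth factor branches were detected, at counts too low to compare replicates.

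Among kinases known for the cytoskeleton and cell polarity, Brsk1, a polarity kinase with presynaptic roles, had 9, 11, 0 and 1 tags, or 0.0723% ± 0.0856. It was high in replicates 1 and 2 and at or near 0 in the others, and its mean share was 0.0335% without replicate 2. Dclk1, a doublecortin-like kinase that binds microtubules and is found in dendrites, had 7, 1, 5 and 7 tags, or 0.0714% ± 0.0420. It was lowest in replicate 2, where Brsk1 was highest. Mark2, which phosphorylates tau and related proteins, had 1, 0, 2 and 1 tags. Cdkl4 had 1, 1, 2 and 0.

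Gsk3b, the glycogen synthase kinase that takes part in long-term depression, was the most even of the genes with at least 10 tags, with 3, 2, 4 and 3 tags and 0.0454% ± 0.0184. Gsk3a had 0, 1, 1 and 0. The casein kinase 1 genes held 32 tags, led by Csnk1g2 with 11, 5, 1 and 1 and by Csnk1a1, a kinase of beta-catenin, with 4, 1, 2 and 1. Csnk2a1, the catalytic subunit of casein kinase 2, had 1, 0, 6 and 3 tags, highest in replicate 3, and its regulatory partner Csnk2b 1, 2, 0 and 1. Of the genes taken in by name alone, Cdk5rap2, a centrosomal protein and not a kinase, had 2, 3, 3 and 1 tags. Of these, 7 were at a site 793152 bases past its annotated end, so that under the name of the annotated gene at each site its mean share fell from 0.0346% to 0.00233%.

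In order of mean share 14 leading genes ran Prkcb, Cdk5r2, Map3k10, Cdk5r1, Brsk1, Dclk1, Csnk1g2, Gsk3b, Csnk2a1, Prkar1b, Cdk14, Cdk5rap2, Prkce and Csnk1a1. For all 13 neighbouring pairs in this order the difference was smaller than the SD of either gene. The order therefore separates the ends of the list more than any step within it.

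**Figure D2:**
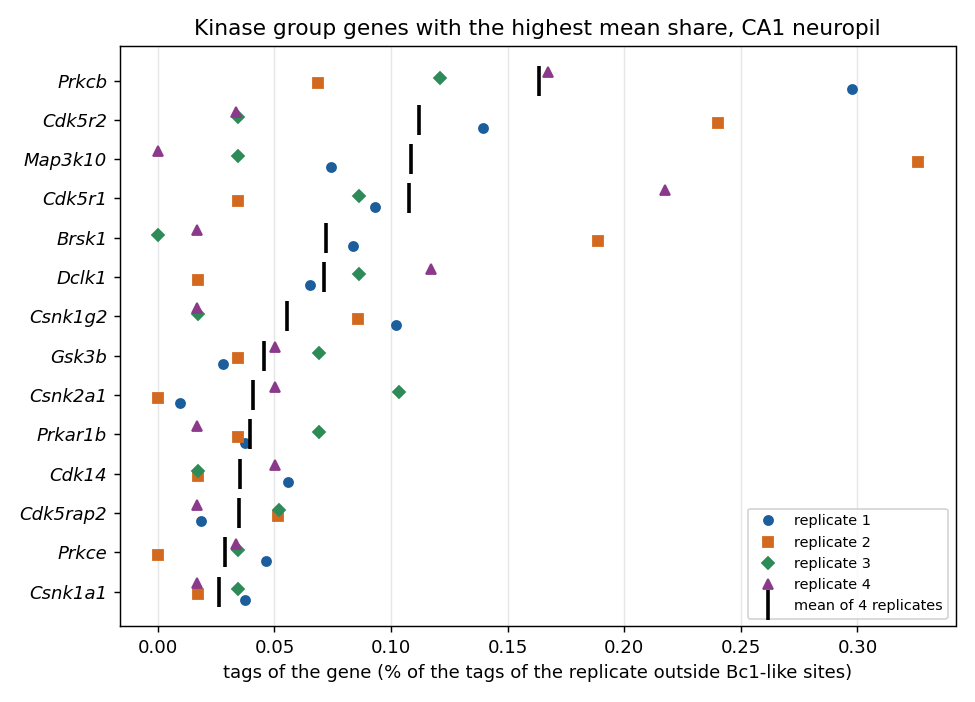
Share of tags (x axis, % of the tags of the replicate outside Bc1-like sites) of 14 kinase group genes with the highest mean shares (y axis), with 1 point per replicate and a black bar for the mean. Replicate 2 is the highest for Cdk5r2, Map3k10 and Brsk1 and low for Prkcb, Cdk5r1 and Dclk1.

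Whether a gene kept its share from replicate to replicate was tested with an exact multinomial test against the tags of each replicate, two-sided, for genes with at least 20 tags and with Benjamini-Hochberg adjustment over all 192 genes tested. Of these genes 65.6% passed an adjusted p of 0.05, and 5 of the 6 kinase genes tested did, a share near that of genes in general. The p-values weigh the differences against counting error alone, and differences between the pools of mice and between library preparations cannot be told apart. Map3k10 was the most uneven, with 8, 19, 2 and 0 tags where an equal share gives 11.0, 5.97, 5.93 and 6.11 (adjusted p = 5.95e-07, exact multinomial test). The others that passed were Brsk1 (adjusted p = 0.00179), Cdk5r2 (0.00388), Prkcb (0.00864) and Cdk5r1 (0.0255) by the same exact test. Dclk1 was not called different between replicates (exact adjusted p = 0.255). Prkcb lost the call without replicate 1 (exact adjusted p = 0.322), without replicate 2 (0.0638) and with Bc1-like tags in the total (0.110). Cdk5r1 lost it without replicate 2 (exact adjusted p = 0.0897), and without replicate 2 no kinase gene of the 2 that still had 20 tags passed.

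Among the uneven genes, the 3 with the highest GC content around the main site shared a peak in replicate 2. Within 100 bases of the main site GC was 61.2% for Cdk5r2, 57.2% for Map3k10 and 53.2% for Brsk1. These were the 3 genes above 50% among the 11 with at least 10 tags, and all 3 had their highest share in replicate 2, where none of the other 8 did. The other uneven genes, Prkcb (36.8% GC) and Cdk5r1 (40.3%), were highest in replicates 1 and 4. Genes with fewer tags are not covered by this comparison. Sites with at least 50% GC took 18.5%, 50.5%, 13.2% and 7.69% of the kinase tags in replicates 1 to 4, and 12.5%, 20.7%, 11.3% and 11.0% of all tags outside Bc1-like sites. In replicate 2 the main sites of Map3k10, Cdk5r2 and Brsk1 held 17, 11 and 11 of the 52 kinase tags at such sites. The kinase shares thus largely restate these 3 genes, and the same tags enter the mean GC of the group. The mean GC over tags was 41.5%, 48.1%, 40.7% and 39.7% for the kinase group, and 39.8%, 42.3%, 39.0% and 39.0% for all sites. The oligodendrocyte markers moved the same way, with 0.419%, 0.617%, 0.190% and 0.134% of tags (6 of 6 detected, Mbp with 20, 27, 6 and 2). The part of base composition, of glial RNA and of the Bc1-like tags in the differences between replicates was not tested.

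**Figure D3:**
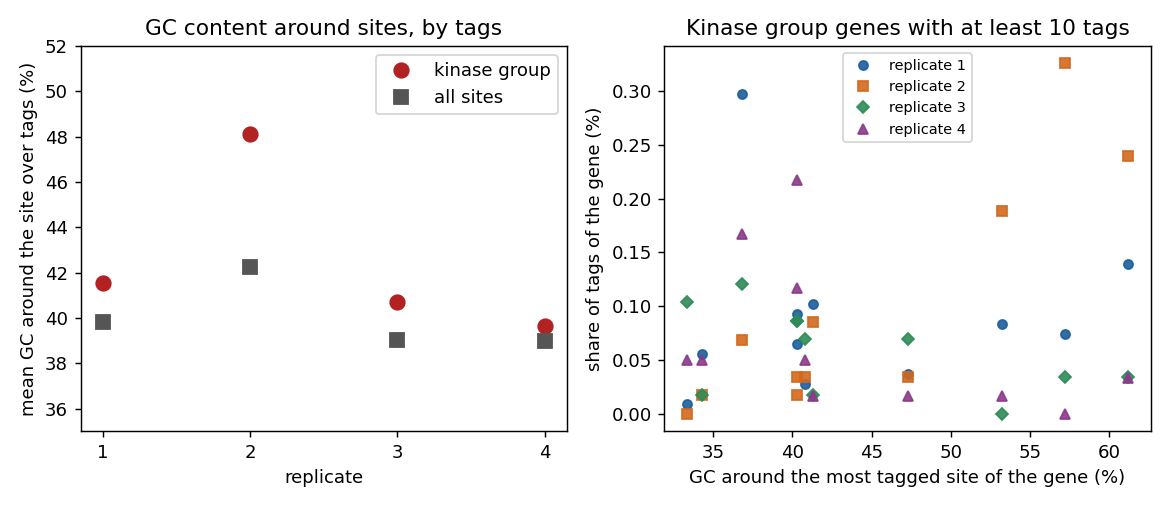
Left, mean GC content within 100 bases of the site over tags (y axis, %, from 35) for the kinase group and for all sites in each replicate (x axis). Right, share of tags (y axis, %) against GC content around the most tagged site (x axis, %) for the 11 kinase group genes with at least 10 tags, with 1 point per gene and replicate, in which the highest points above 50% GC are of replicate 2.

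Several kinase genes used more than 1 end, and in Prkcb the ends belong to different last exons. The deposited sites of Prkcb were a proximal one at chr7 position 122628651 with 10, 0, 1 and 2 tags and a distal one at 122634375, 5724 bases downstream, with 20, 4, 5 and 8. The proximal site lay 837 bases past the stop codon of a transcript for a protein of 673 residues, and the distal one 478 bases past that of a transcript for 671 residues, in the vM21 annotation. PKCβ is known for a pair of forms that differ at their C-terminal end through these alternative last exons. The distal site gave 37 of 53 tags (69.8%, exact 95% interval 55.7 to 81.7) and the proximal one 13 (24.5%, interval 13.8 to 38.3). Distal tags were the more numerous in each replicate, and replicate 2 had distal tags alone. A further annotated transcript, labelled as a target of nonsense-mediated decay, has the upstream stop codon and the distal end, so the site does not fix the protein form. The remaining tags were 2 at a noncoding exon 904 bases before the distal site and 1 in an intron.

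Cdk5r1 and Dclk1 also had more than 1 end with tags in more than 1 replicate. In Cdk5r1 the distal end, 2728 bases past the stop codon, had 8, 2, 5 and 12 tags, and an end 651 bases before it, which lacked both hexamers, had 2, 0, 0 and 1. The long 3′UTR thus gave 27 of 30 tags (90%, exact 95% interval 73.5 to 97.9). In Dclk1 the proximal end, 2801 bases past the stop codon, had 5, 0, 3 and 1 tags, a second end 111 bases further had 1, 1, 1 and 0, and the distal end, 5299 bases past the stop codon, had 1, 0, 1 and 5. Replicates 1 and 3 favoured the proximal end and replicate 4 the distal one, on counts of 7 or fewer. A single tag in replicate 4 lay 71625 bases upstream of the gene end, in the 3′UTR of short transcripts whose protein of 363 residues ends before the last exons of the full form of 756 residues.

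**Figure D4:**
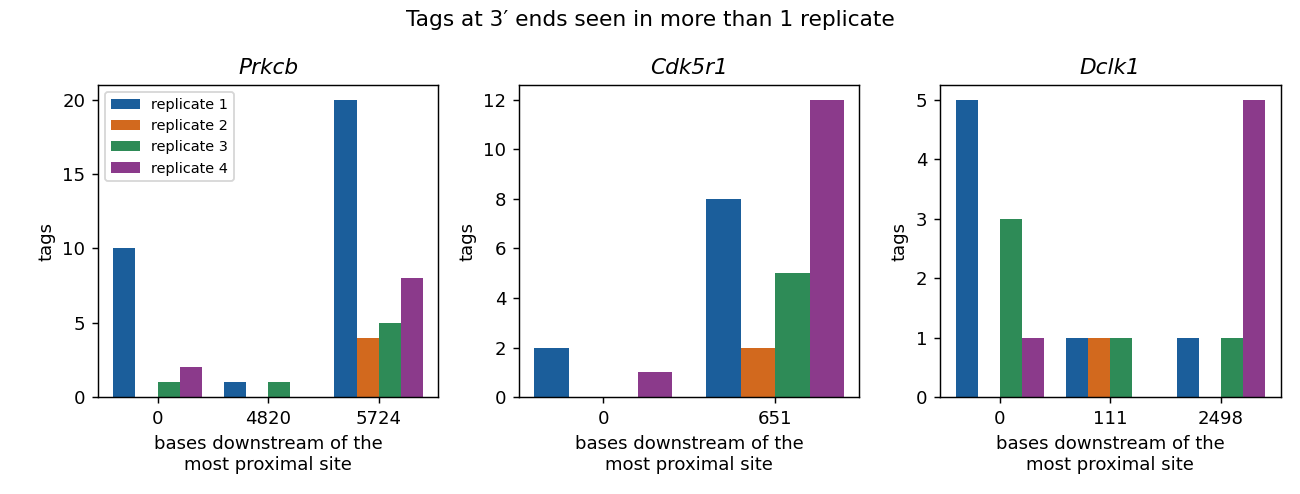
Tags (y axis) at each 3′ end with tags in more than 1 replicate (x axis, bases downstream of the most proximal such end) of Prkcb, Cdk5r1 and Dclk1, with 1 bar per replicate. The most distal end holds the most tags in Prkcb (37) and Cdk5r1 (27), and the proximal one in Dclk1 (9).

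Whether the use of ends differed between replicates was tested with an exact Fisher-Freeman-Halton test, two-sided, in genes with at least 20 tags at such ends. Of all 50 genes tested 26% passed an adjusted p of 0.05, and 0 of 2 kinase genes did, with 0 also at an unadjusted p of 0.05. The exact adjusted p was 0.741 for Prkcb, whose distal end took 64.5%, 100%, 71.4% and 80% of the tags at its 3 tested ends, and 0.753 for Cdk5r1 (80%, 100%, 100% and 92.3%). Counts of this size leave room for differences that could not be detected, and Dclk1 had too few tags at these ends to be tested.

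Summed over these 3 genes, the most distal end took 29 of 46, 6 of 6, 11 of 15 and 25 of 29 tags at the most distal and most proximal ends, or 80.6% ± 16.0. Over all 215 genes with such ends the mean was 61.7% ± 5.74, and the kinase value was the higher in each of 4 replicates. With the outermost pair of all listed ends of each gene, 22 kinase genes gave 72.6%, 87.2%, 82.4% and 80.4% (80.6% ± 6.06), and 1530 genes in all gave 56.7% ± 2.54. In 16 of the 22 the most proximal listed end held 1 tag, as in Prkcb, where it was the intronic site, and tags at ends in between were left out. By gene, 12 of these 22 had more distal tags, 3 more proximal tags and 7 equal numbers. In all genes these were 540, 393 and 597. The 12 include Dclk1, set here against its single far upstream tag and not against its end with 9 tags, and Cdk5rap2, through its site far past the gene. Without Prkcb, Cdk5r1 and Map3k10, the 3 genes with the most tags at their most distal and most proximal ends, the kinase value was 67.0% ± 6.11 over 19 genes. The difference from other genes was not tested, since the genes share replicates and the sums rest on few of them.

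**Figure D5:**
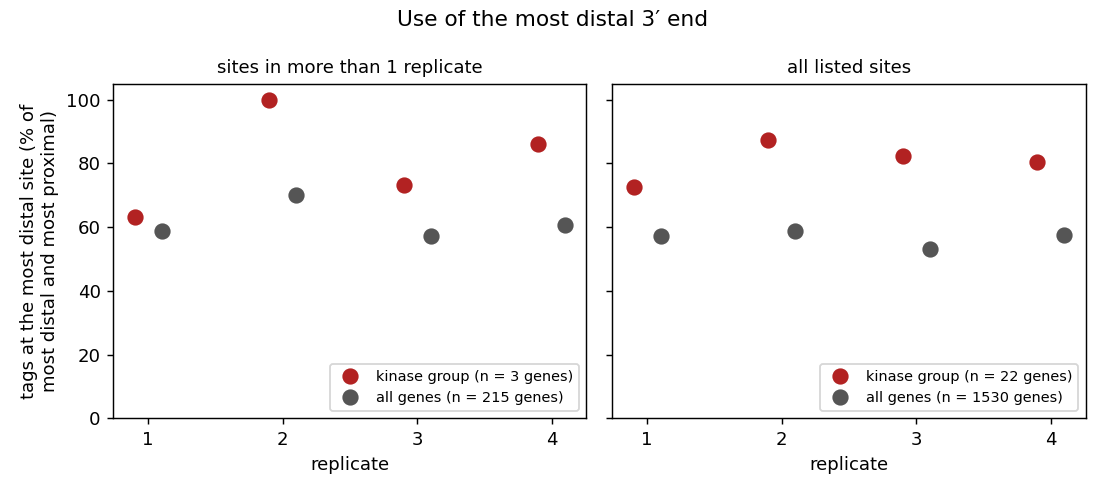
Tags at the most distal end as a percentage of tags at the most distal and most proximal ends (y axis) in each replicate (x axis), for the kinase group and all genes, with the outermost pair taken from ends with tags in more than 1 replicate (left) or from all listed ends (right). Kinase values of 63.0 to 100% on the left and 72.6 to 87.2% on the right lie above those of all genes in the same replicate.

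Gsk3b was among the exceptions, with 2, 2, 4 and 3 tags at an end 4871 bases past the stop codon and a single tag at the annotated gene end 616 bases further. Its 11 of 12 tags at the inner end (91.7%, exact 95% interval 61.5 to 99.8) still belong to a 3′UTR longer than the median of the group. Prkca likewise had 3 of 5 tags 1253 bases past the stop codon and 1 at 6104 bases. In Map3k10 the main end, 268 bases past the stop codon, had 4, 17, 2 and 0 tags. Its other 6 tags lay at 3 sites between 7781 and 11794 bases upstream of that end, each with 2 tags in 1 replicate, 1 of them in the 3′UTR of a short transcript for 289 residues in place of 940. In Cdk5r2 29 of 33 tags fell at an end 322 bases before the annotated gene end, with 14, 11, 2 and 2 tags, and 1 tag lay at the end itself. Its window carries tataaa, a less common form of the signal.

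The deposited names limit what the pattern finds. Of the 113 kinase sites 103 lay in an annotated gene of the same name, and the other 10, with 20 tags, lay between genes, 9 of them more than 10 kb past the end of the named gene. Conversely, 9 sites with 33 tags in kinase group genes carried other names, mostly those of microRNAs, and are not in the counts above. These included a Mapk8ip1 site named Mir7000 with 5, 10, 0 and 0 tags, a Cdk17 site named Mir1931 with 5, 2, 1 and 0, and a Brsk2 site named Mir3104 with 2, 0, 0 and 1. With the annotated name at each site the group took 1.60% ± 0.248 of tags.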

How the data were processed

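The authors deposited tag counts, whole numbers without normalization, per 1-base polyA site and replicate. The submitters' processing notes name cutadapt, Novoalign and mm10 without versions, and the study's methods name CTK for clustering tags into sites. The table's name says that the sites overlap peaks of Camk2a-expressing cells. How duplicate and multiply mapped tags were treated was not given in the sources used here, so a site in repeated sequence may hold tags of other loci.

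The kinase group and all lists were chosen with earlier results of these data known. Sites were annotated with GRCm38 and GENCODE vM21, and none lay past a chromosome end. A site counted as Bc1-like with at least 10 of 63 words of 12 bases of the first 74 bases of Bc1 within 75 bases. Genes named were the 15 with the highest mean share, the leading gene of each family, genes with several ends, tested genes and genes with an intronic site in more than 1 replicate; some of these are not reported here, and others were chosen after their values were seen. Lists were PKA anchors and inhibitors, Ras and Raf genes, PI3K and mTOR partners, and markers of 6 cell types. Tests used Python 3.11.15 with SciPy 1.17.1, NumPy 2.4.6, pandas 2.3.3 and pysam 0.24.0 and were tested on simulated data. The alternatives were leaving out each replicate, annotated names, other totals, thresholds, windows and sets of sites.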

Additional observations from a re-analysis of the deposited data

How the results depend on the processing

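Of 53 alternative values of the main results 43 kept their direction and side of the threshold or moved by less than their error. The share of the group (1.55%) was 1.35% of all tags, 1.25% over sites in more than 1 replicate and 1.15% for catalytic subunits alone, and 1.48 to 1.63% leaving out each replicate. With at least 2 tags to count a site as seen in a replicate, 16.8% of sites were seen in more than 1. Leaving out each replicate in turn, 0 to 5 kinase genes differed in share between replicates, with 0 of 2 tested without replicate 2 and 2 of 3 without replicate 1, and with a minimum of 50 tags 1 of 1 did. The fewer samples and tags leave fewer genes to test. Kinase sites in a 3′UTR came to 93.8% with annotated names. A signal was found at 27.4% of sites in the 50 bases upstream alone and at 63.7% for AATAAA alone. With the outermost pair of all listed ends and without Prkcb, Cdk5r1 and Map3k10, an alternative chosen after seeing the data, the distal share was 67.0%. Except where a cause is given, it was not tested. Of 173 values of single genes and of counts over all genes 160 were unchanged in call or moved by less than their error. With a minimum of 10 tags 6 of 11 kinase genes tested differed in share, and genes with fewer tags were not tested. No paired analysis was possible because all samples form 1 group.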
